A study of Mus musculus with 4 samples.

Results

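The intermediate filament genes outside the keratin families that were followed here are *Vim*, *Des*, *Prph*, *Nes*, *Nefl*, *Nefm*, *Ina*, *Lmna*, *Lmnb1* and *Lmnb2*. They were chosen by name, as the 10 genes listed under these symbols, out of 46983 genes in each table. Each symbol matched 1 row in every table, and all 10 passed the filter on low values used for testing. Bulk RNA-seq was available for 4 pools of mouse larynx tissue dissected at E10.5 (32 to 35 somites), each made from 3 larynxes. The study describes the dissected tissue as vocal fold tissue. The mutant group consisted of pools 1 and 2 from *Shh*-/- embryos, which carry the Shhtm1amc null allele on a Swiss Webster background, and the control group of pools 4 and 6 from Swiss Webster WT embryos. No treatment or transgene was used in either group. The sample labels write the mutant genotype as Shh+/-, whereas the series design and the study call these pools *Shh*-/-, and that name is kept here. Tissue from 3 embryos was merged in each library, so n = 2 pools per genotype. The SDs below describe the spread between pools. The SEs and intervals come from the model described below, which shares its estimate of spread between genes.

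Intermediate filaments are rope-like polymers of coiled-coil proteins. Type III filaments are built from vimentin in mesenchymal, endothelial and many embryonic cells, from desmin in muscle and from peripherin in peripheral and autonomic neurons. Type IV filaments include nestin, a filament protein of dividing neural, muscle and other progenitor cells, and the neuronal proteins neurofilament light, neurofilament medium and α-internexin, which co-assemble in axons. Lamins, the type V proteins, line the inner face of the nuclear envelope. B-type lamins are made in nearly all cells, and A-type lamins accumulate as tissues differentiate and stiffen.

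Levels are given as TPM, the share of a library's transcripts after correction for transcript length, scaled to the same total in every library. Changes were estimated with limma, a linear model with a shared estimate of spread, on log2(TPM + 1), as *Shh*-/- minus WT, for 16972 genes whose TPM averaged 1 or more. P-values were adjusted with the Benjamini-Hochberg method over all tested genes, with a threshold of 0.05. The aligned bases behind each library, read from the ratio of coverage to FPKM, were 1.37 and 3.13 gigabases in the *Shh*-/- pools and 2.85 and 2.97 gigabases in the WT pools, so *Shh*-/- pool 1 was the shallowest. *Shh* itself stood at 10.4 and 10.8 TPM in mutant pools against 23.7 and 42.1 TPM in controls (log2 fold change −1.49, limma adjusted p = 0.0895), and its target *Ptch1*, the hedgehog receptor, fell from 57.8 and 55.1 TPM in WT to 12.9 and 13.8 TPM (log2 fold change −2.00, limma adjusted p = 0.0319). Because these are whole-tissue libraries, a change in the number of cells of one type cannot be told apart from a change in RNA per cell.

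*Ina*, *Nefl* and *Prph*, which encode filament proteins of neurons, rose several-fold in the *Shh*-/- larynx. *Nefm* had the highest estimate but did not pass the threshold. The estimates for *Vim*, *Nes* and the lamins were smaller and did not pass, and *Des* overlapped between genotypes. All 10 estimates were above 0, with a median log2 fold change of 0.61, against 0.083 over all tested genes. Of the 16972 tested genes, 9895 were above 0. In limma 3 of the 10 genes passed, all higher in *Shh*-/-. Of all tested genes 0.725% passed, 0.56% as higher and 0.165% as lower. At an unadjusted p under 0.05, 9 of the 10 were higher and none lower, against 17.5% higher and 7.22% lower of all tested genes. Every gene but *Des* had both *Shh*-/- pools above both WT pools. Over all tested genes, 38% had non-overlapping pools in that direction and 22.7% in the other.

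**Figure D1:**
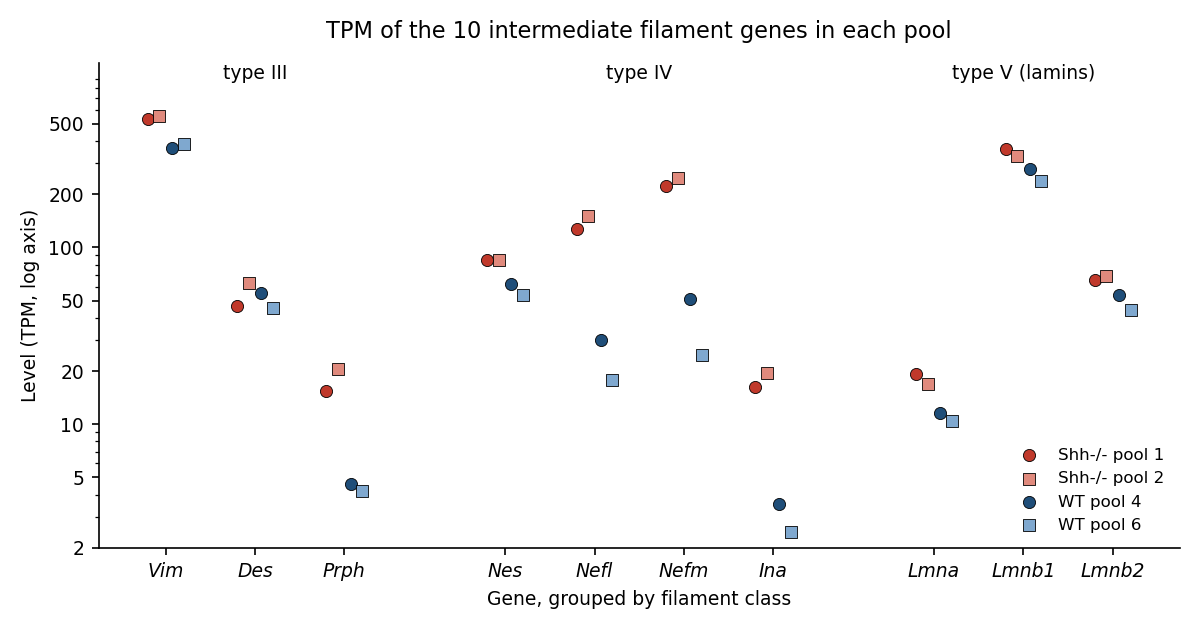
TPM of the 10 genes in each of the 4 pools, on a log axis, with genes grouped by filament class and 1 point per pool. The *Shh*-/- pools (red) lie above the WT pools (blue) for every gene except *Des*, and the widest gaps are those of *Nefl*, *Nefm*, *Ina* and *Prph*.

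Summed by class, the type IV genes differed most. Together the 4 genes reached 450.0 and 501 TPM in mutant pools against 147 and 98.7 TPM in WT, a 3.95-fold ratio of geometric means. The type III genes summed to 595 and 635 TPM in *Shh*-/- and to 426 and 433 TPM in WT, a ratio of 1.43. The lamins summed to 447 and 416 TPM in *Shh*-/- and to 342 and 291 TPM in WT, a ratio of 1.37. None of the 3 sums overlapped between genotypes, and no test was run on them because they pool the chosen genes. In total the 10 genes took 0.149 and 0.155% of all TPM in mutants, compared with 0.0915 and 0.0823% in controls. The type IV share of that total was 30.2 and 32.3% in *Shh*-/- and 16.0 and 12% in WT. *Vim* alone, the most abundant of the 10 in every pool, made up 35.7 and 35.5% of it in *Shh*-/- and 40.0 and 46.6% in WT.

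**Figure D2:**
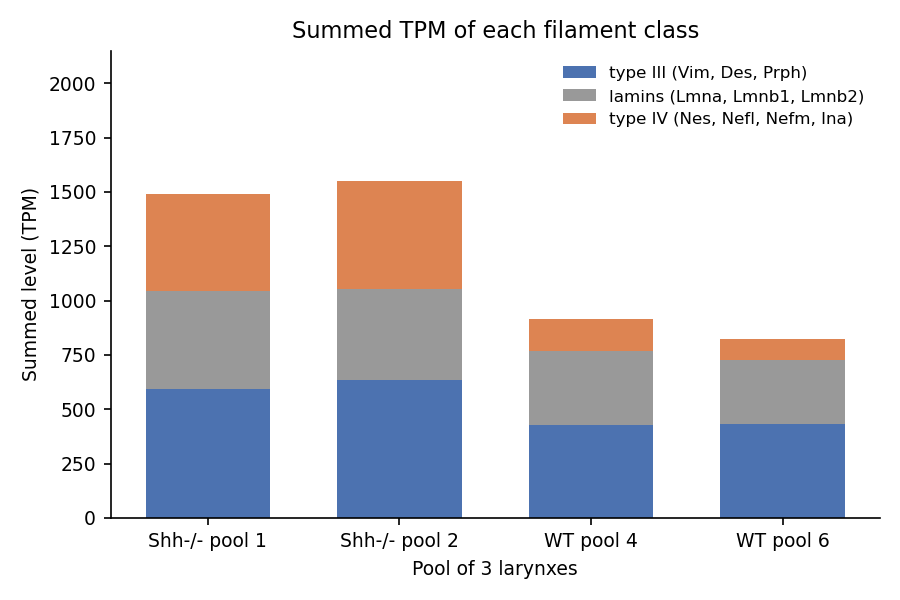
Summed TPM of the type III, lamin and type IV genes in each pool, stacked from 0. The type IV segment reaches 450.0 and 501 TPM in mutants against 147 and 98.7 TPM in controls, while the other segments differ less.

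Within WT the order of levels ran from *Vim* (375 ± 12 TPM, SD, n = 2 pools) and *Lmnb1* (256 ± 28.7 TPM) through *Nes* (57.8 ± 5.87), *Des* (50.5 ± 6.91) and *Lmnb2* (49.3 ± 6.68) to *Nefm* (38.0 ± 18.8) and *Nefl* (23.9 ± 8.59). *Lmna* (11 ± 0.82 TPM), *Prph* (4.39 ± 0.27 TPM) and *Ina* (2.99 ± 0.75 TPM) were the lowest. The spreads of *Nes*, *Des*, *Lmnb2* and *Nefm* touched one another, and so did those of *Nefm* and *Nefl*. All were measured in the same pools, however, and the order of these genes was the same in both WT pools. *Des* and *Lmnb2* were close, at 55.4 and 54.0 TPM in pool 4 and 45.6 and 44.5 TPM in pool 6. The order was not tested. In *Shh*-/- pools *Nefm* (234 ± 17.4 TPM) and *Nefl* (139 ± 16.3 TPM) ranked directly after *Vim* (542 ± 12.8 TPM) and *Lmnb1* (347 ± 22.3 TPM), above *Nes* (85.0 ± 0.30 TPM). *Lmna*, *Prph* and *Ina*, at 18.1 ± 1.65, 18.0 ± 3.68 and 17.9 ± 2.31 TPM, could not be ordered there. The spreads of *Lmnb2* (67.0 ± 2.04 TPM) and *Des* (54.8 ± 11.8 TPM) touched, but *Lmnb2* was the higher in both *Shh*-/- pools.

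Among the neuronal type IV genes, *Nefm*, which encodes the medium neurofilament chain (chromosome 14 of mm10, 68082590 to 68124846), was at 222 and 246 TPM in mutants and 51.3 and 24.8 TPM in controls. Its groups were separated by a factor of 4.32 between the lower *Shh*-/- pool and the higher WT pool, but the WT pools differed from each other 2.07-fold. The log2 fold change was 2.68 (SE 0.34, 95% interval 1.80 to 3.56), the highest of the 10, and with this spread the limma adjusted p was 0.0595, short of the threshold.

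*Nefl*, the light neurofilament chain on which the other chains assemble (chromosome 14, 68083863 to 68089095), was at 127 and 150 TPM in *Shh*-/- and at 29.9 and 17.8 TPM in WT. Both mutant pools were well above both WT pools, and WT pool 4 was again the higher of the controls. *Nefl* rose with a log2 fold change of 2.53 (SE 0.26, 95% interval 1.86 to 3.20, limma adjusted p = 0.0449). *Nefl* and *Nefm* are neighbors on opposite strands. In GENCODE M21 one *Nefm* transcript spans *Nefl*, and their exons share 1108 bases. The libraries are stranded, but the strand setting used for assembly is not given in the sources used here, so the split of reads between these genes is uncertain. The ratio of *Nefl* to *Nefm* TPM was 0.573 and 0.609 in the *Shh*-/- pools and 0.583 and 0.718 in WT, which overlapped.

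*Ina*, the gene of α-internexin, an early neuronal filament protein (chromosome 19, 47014698 to 47025327), measured 16.3 and 19.6 TPM in *Shh*-/- and 3.52 and 2.46 TPM in WT. It had the lowest p of the 10 genes, with a log2 fold change of 2.25 (SE 0.21, 95% interval 1.71 to 2.80, limma adjusted p = 0.0418). Its mean base coverage was lowest in WT pool 6, at 3.66 reads per base, the lowest of any member in any pool. Its gene span shares 456 bases with that of *Nt5c2* on the opposite strand, a gene at 39.3 to 49.6 TPM. Shared exon bases were not counted for this pair, so reads there may be uncertain too. The ratio of *Ina* to *Nefm* was 0.0735 and 0.0795 in *Shh*-/- and 0.0686 and 0.0994 in WT, again overlapping.

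*Prph*, the type III gene of peripherin (chromosome 15, 99055174 to 99058978), was at 15.4 and 20.6 TPM in *Shh*-/- and at 4.58 and 4.2 TPM in WT. It rose with a log2 fold change of 1.80 (SE 0.20, 95% interval 1.3 to 2.31, limma adjusted p = 0.0466). Unlike *Nefm* and *Nefl*, its WT pools were close, at a ratio of 1.09. *Prph* was lower relative to *Nefm* in the mutant, with ratios of 0.0693 and 0.0835 in *Shh*-/- against 0.0893 and 0.169 in WT, and those ratios did not overlap. Of the neuronal chains, the heavy neurofilament gene *Nefh*, named here after its values were seen, was below the filter, at 0.42 and 0.42 TPM in *Shh*-/- and 0.35 and 0.33 TPM in WT.

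The calls for *Ina*, *Nefl* and *Prph* were close to the threshold. With any 1 pool left out, none of them passed in limma, while 7 to 9 of the 10 genes still had an unadjusted p under 0.05. The log2 fold changes then ran from 2.06 to 2.45 for *Ina*, 2.17 to 2.89 for *Nefl*, 2.17 to 3.19 for *Nefm* and 1.60 to 2.0 for *Prph*.

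Promoter sequences were taken from RefSeq (GRCm38.p6) for the genes that rose and for *Vim* as the most abundant member; 7 of the 10 genes had an entry, and *Nefl*, *Nefm* and *Lmnb1* had none. They are shown to compare the start regions of *Prph* and *Ina*, both of which rose. The 100 bases before the annotated start are printed 5′ to 3′ on the plus strand, with TATAAA in capitals.
*Prph*, chr15:99055074-99055173: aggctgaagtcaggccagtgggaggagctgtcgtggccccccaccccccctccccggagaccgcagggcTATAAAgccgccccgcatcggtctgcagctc
*Ina*, chr19:47014581-47014680: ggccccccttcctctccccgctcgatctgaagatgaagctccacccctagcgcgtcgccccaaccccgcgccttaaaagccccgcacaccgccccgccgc
*Vim*, chr2:13574211-13574310: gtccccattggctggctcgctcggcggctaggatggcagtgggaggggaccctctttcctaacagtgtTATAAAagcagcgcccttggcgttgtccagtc
TATAAA began 31 bases before the start in *Prph* and 32 bases before it in *Vim*, and was not found in the *Ina* window. On either strand of the 250 bases before a start, TATAAA occurred in 12.4% of 32851 promoter entries. The E-box CANNTG, a core bound by basic helix-loop-helix factors, was found before *Ina* and not before *Prph* (66.2% of entries). It was also found before *Des* and *Lmnb2*, which did not pass the threshold, and not before *Vim*, *Nes* or *Lmna*. The GLI motif GACCACCCA was found before none of the 7 genes (0.225% of entries). These are letter matches only.

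Most neuron markers were higher in the same pools as the neuronal filament genes. Of 12 neuron markers, 5 passed as higher in *Shh*-/- and none as lower in limma (10 were higher and 0 lower with an unadjusted p under 0.05). The other 2, *Map2* (log2 fold change 0.31) and *Syt1* (0.03), overlapped between genotypes. The list's summed level was 548 and 583 TPM in *Shh*-/- against 173 and 146 TPM in WT, and all 12 passed the filter. *Tubb3*, the neuronal β-tubulin and the most abundant marker, rose from 37.6 and 21.5 TPM in WT to 184 and 203 TPM in mutants (log2 fold change 2.72, adjusted p = 0.0422). *Stmn2*, a microtubule regulator of growing axons, had a log2 fold change of 2.30 (adjusted p = 0.0319). The part of neuron number in the filament values was not tested. Neural crest and Schwann precursor markers (8 genes) summed to 152 and 138 TPM in mutants and 98.6 and 79.5 TPM in controls. None of the 7 tested passed in limma, 4 were higher at an unadjusted p under 0.05, and *Tfap2a* had the lowest p (log2 fold change 1.54, adjusted p = 0.0887) and *Ednrb* the highest level (log2 fold change 0.32, adjusted p = 0.231).

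Scaled to *Tubb3* in the same pool, a comparison chosen after the values were seen, *Nefm* stood at 1.2 and 1.21 in *Shh*-/- and at 1.37 and 1.15 in WT. For *Ina* the ratio was 0.0885 and 0.0963 in *Shh*-/- and 0.0937 and 0.115 in WT, which also overlapped. *Nefl* to *Tubb3* was lower in the mutant, at 0.690 and 0.738 against 0.796 and 0.828, and so was *Prph* to *Tubb3*, at 0.0834 and 0.101 against 0.122 and 0.195. Relative to the sum of all 12 neuron markers, *Nefl*, *Nefm* and *Ina* were higher in the mutant without overlap, and *Prph* overlapped. Of the genes lower relative to *Tubb3*, only *Nefl* thus turned. The 4 neuronal filament genes together were at 0.695 and 0.749 in mutants and 0.516 and 0.337 in controls on that scale. Scaled to *Stmn2* instead, *Nefm* (2.49 and 2.39 in mutants, 2.82 and 1.3 in controls), *Nefl* and *Ina* overlapped between genotypes, and *Prph* was lower in the mutant. *Tubb3* was higher in WT pool 4 than in pool 6, as were *Nefm*, *Nefl* and *Ina*, but *Stmn2* was at 18.2 and 19.1 TPM and *Map2* at 11.1 and 23.8 TPM in these pools.

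**Figure D3:**
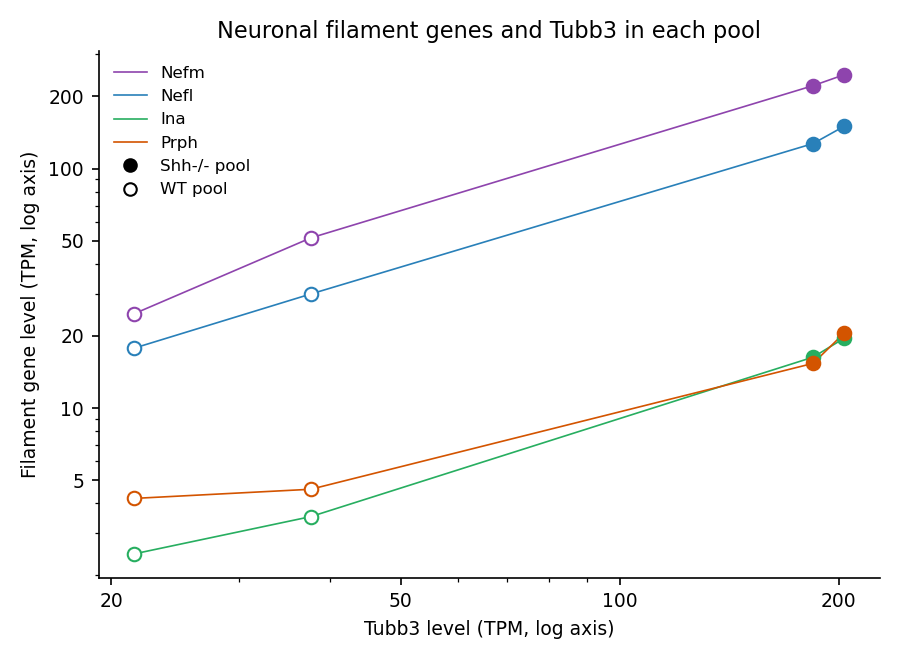
TPM of *Nefm*, *Nefl*, *Ina* and *Prph* against TPM of *Tubb3* in the 4 pools, both on log axes, with filled points for *Shh*-/- and open points for WT and lines joining the points of 1 gene. The *Shh*-/- pools sit at 184 and 203 TPM of *Tubb3* and the WT pools at 37.6 and 21.5 TPM, and the lines of *Nefm* and *Nefl* climb alongside.

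*Nes*, the gene of nestin (chromosome 3, 87971078 to 87980451), was the type IV member that is not neuron-specific, and its estimate was smaller than those of the other type IV genes. It measured 84.7 and 85.2 TPM in *Shh*-/- and 62.0 and 53.7 TPM in WT. The groups did not overlap, and the log2 fold change was 0.55 (SE 0.12, 95% interval 0.25 to 0.85, limma adjusted p = 0.101), which did not pass. With every library adjusted for the GC content and length of its transcripts, an alternative added after the data were seen, it was 0.19. Of the 5 tested genes among 8 neural progenitor markers, none passed in limma in either direction (an unadjusted p under 0.05 was reached by 2 higher genes and 1 lower). Of genes named after their values were seen, *Sox1* and *Olig2* were each at 0 in 3 of the 4 pools. *Pax6* was at 1.59 and 1.67 TPM in mutants and 0.39 and 0.47 TPM in controls (adjusted p = 0.123), and *Nkx6-1* at 0.073 and 1.85 TPM against 15.8 and 5.82 TPM (adjusted p = 0.118). The sum of the list was 168 and 129 TPM in *Shh*-/- against 133 and 113 TPM in WT, which overlapped. *Msi1*, the most abundant, had a log2 fold change of 0.39 (adjusted p = 0.283), and *Fabp7*, with the lowest p, one of 1.32 (adjusted p = 0.0595).

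*Vim*, the gene of vimentin and the most abundant of the 10 (chromosome 2, 13573927 to 13582826), was at 533 and 551 TPM in *Shh*-/- and at 366 and 383 TPM in WT. The pools of each genotype lay close together, with SDs of 12.8 and 12 TPM, and the genotypes did not overlap. The log2 fold change of 0.53 had an SE of 0.08 and a 95% interval of 0.31 to 0.75, and the limma adjusted p of 0.0728 did not pass. *Vim* was the steadiest of the non-neuronal members across settings, with log2 fold changes of 0.40 to 0.56 over the 14 alternatives.

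Mesenchyme markers (8 genes) summed to 1174 and 1050 TPM in *Shh*-/- and to 761 and 790 TPM in WT, with 1 passing as higher, the transcription factor gene *Twist1* (log2 fold change 1.57, limma adjusted p = 0.0323), while *Col3a1*, the most abundant, had a log2 fold change of 0.07 (adjusted p = 0.689). At an unadjusted p under 0.05, 4 of these markers were higher and 1 lower, *Lum*, named after its values were seen, at 9.20 and 11 TPM in mutants and 17.5 and 25.7 TPM in controls. Endothelium markers (6 genes) summed to 293 and 342 TPM against 195 and 182 TPM, with 0 passing in limma but 6 at an unadjusted p under 0.05, among them *Cdh5*, the most abundant (log2 fold change 0.59, adjusted p = 0.0895), and *Tek*, with the lowest p (log2 fold change 1.03, adjusted p = 0.0688). The ratio of *Vim* to the mesenchyme sum was 0.454 and 0.525 in *Shh*-/- and 0.482 and 0.486 in WT, which overlapped, whereas the ratio to the endothelium sum was lower in *Shh*-/-, at 1.82 and 1.61 against 1.88 and 2.1. The epithelium markers (8 genes) summed to 717 and 624 TPM against 609 and 590.0 TPM, with 0 passing in limma and 1 at an unadjusted p under 0.05. That gene was *Krt8* (log2 fold change 0.44, adjusted p = 0.128), and *Cldn6*, the most abundant, was at 190 and 165 TPM against 181 and 172 TPM. Of the 8 epithelium estimates, 6 were above 0 and 2 below. *Cdh1*, named after its values were seen, was lower, at 41.1 and 25.9 TPM in mutants and 45.2 and 43.2 TPM in controls (log2 fold change −0.42, limma adjusted p = 0.311). The part of these cell types in the *Vim* values was not tested.

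*Des*, the muscle filament gene (chromosome 1, 75360329 to 75368579), was at 46.5 and 63.2 TPM in *Shh*-/- and at 55.4 and 45.6 TPM in WT. It was the 1 gene of the 10 whose genotypes overlapped. Its log2 fold change was 0.11 (SE 0.19, limma adjusted p = 0.747), with a 95% interval of −0.39 to 0.60 that leaves room for a modest change in either direction, and its sign turned under 4 of the 14 alternatives.

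Most muscle marker estimates in the same pools were above 0. This held for all 11 tested striated and cardiac markers and for 5 of 6 smooth muscle markers, beside 9895 of all 16972 tested genes. Of 11 tested striated and cardiac muscle markers, 2 passed as higher, *Myh7* and *Myh6*, which encode cardiac myosin heavy chains, 8 were higher at an unadjusted p under 0.05, and the sum of the list was 198 and 311 TPM in *Shh*-/- against 77.7 and 87.6 TPM in WT. *Myh7* rose from 2.79 and 2.32 TPM in WT to 16.8 and 12.6 TPM in mutants (log2 fold change 2.13, limma adjusted p = 0.0422), and *Actc1*, the most abundant, had a log2 fold change of 1.3 (adjusted p = 0.0592). The smooth muscle markers (6 genes) summed to 438 and 432 TPM against 240.0 and 251 TPM, and *Tagln*, an actin-binding protein gene, passed as higher (log2 fold change 0.88, limma adjusted p = 0.0493), with 3 of the 6 higher at an unadjusted p under 0.05. Some markers, named after their values were seen, overlapped between genotypes as *Des* did. They were the skeletal muscle regulators *Myod1* (log2 fold change 0.54) and *Myog* (0.11), and the smooth muscle markers *Myh11* (0.007) and *Actg2* (0.19). The other tested markers in these lists did not overlap. *Myocd*, also named after its values were seen, was the 1 smooth muscle marker below 0 (log2 fold change −0.54, limma adjusted p = 0.342). *Des* relative to the striated and cardiac sum was 0.235 and 0.203 in *Shh*-/- and 0.713 and 0.521 in WT. *Des* relative to the smooth muscle sum was 0.106 and 0.146 in *Shh*-/- and 0.231 and 0.182 in WT. Neither ratio, both chosen after the values were seen, overlapped between genotypes, and the part of muscle cell number in the *Des* values was not tested.

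The 3 lamin genes were higher in both *Shh*-/- pools than in both WT pools, and none passed in limma, while all 3 had an unadjusted p under 0.05. *Lmnb1*, the gene of lamin B1 (chromosome 18, 56707813 to 56753424), was the second most abundant member, at 362 and 331 TPM in *Shh*-/- and 277 and 236 TPM in WT. Its log2 fold change was 0.44 (SE 0.12, 95% interval 0.13 to 0.74, adjusted p = 0.132). *Lmnb2*, the gene of lamin B2 (chromosome 10, 80901203 to 80918245), was at 65.6 and 68.5 TPM in *Shh*-/- and 54.0 and 44.5 TPM in WT. Its log2 fold change was also 0.44 (SE 0.13, 95% interval 0.10 to 0.79, adjusted p = 0.149), and the ratio of *Lmnb2* to *Lmnb1* overlapped between genotypes, at 0.181 and 0.207 against 0.195 and 0.189.

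*Lmna*, whose transcripts encode lamins A and C (chromosome 3, 88480147 to 88509956), was at 19.3 and 17.0 TPM in *Shh*-/- and 11.5 and 10.4 TPM in WT. The log2 fold change was 0.68 (SE 0.15, 95% interval 0.29 to 1.06, limma adjusted p = 0.106). The gene tables sum its transcripts, so lamin A and lamin C were not separated. A-type transcripts were a small fraction of the lamins in every pool, and that fraction was 4.32 and 4.08% in *Shh*-/- and 3.37 and 3.57% in WT, without overlap.

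The lamin estimates were smaller after the adjustment for GC content and transcript length. The log2 fold changes were 0.39 for *Lmna*, 0.18 for *Lmnb1* and 0.029 for *Lmnb2*, with limma adjusted p of 0.193, 0.325 and 0.895. The same adjustment left 1.43 for *Prph*, 1.91 for *Ina*, 2.26 for *Nefm*, 2.37 for *Nefl* and 0.47 for *Vim*. Proliferation markers, 10 genes of the dividing cell, summed to 2174 and 2235 TPM in *Shh*-/- and to 2376 and 2530 TPM in WT, with none past the threshold in either direction in limma and 3 lower at an unadjusted p under 0.05. *Top2a*, the most abundant, had a log2 fold change of −0.32 (adjusted p = 0.238) and *Ccna2*, with the lowest p, one of −0.43 (adjusted p = 0.102). The list was not uniform, as 6 of the 10 estimates were below 0 and 4 above. Those above, named after their values were seen, were *Cdk1* (0.40), *Mcm2* (0.17), *Mcm3* (0.15) and *Mcm5* (0.07). The ratio of *Lmnb1* to that sum was 0.167 and 0.148 in *Shh*-/- against 0.116 and 0.0933 in WT, and the part of proliferation in the lamin values was not tested.

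**Figure D4:**
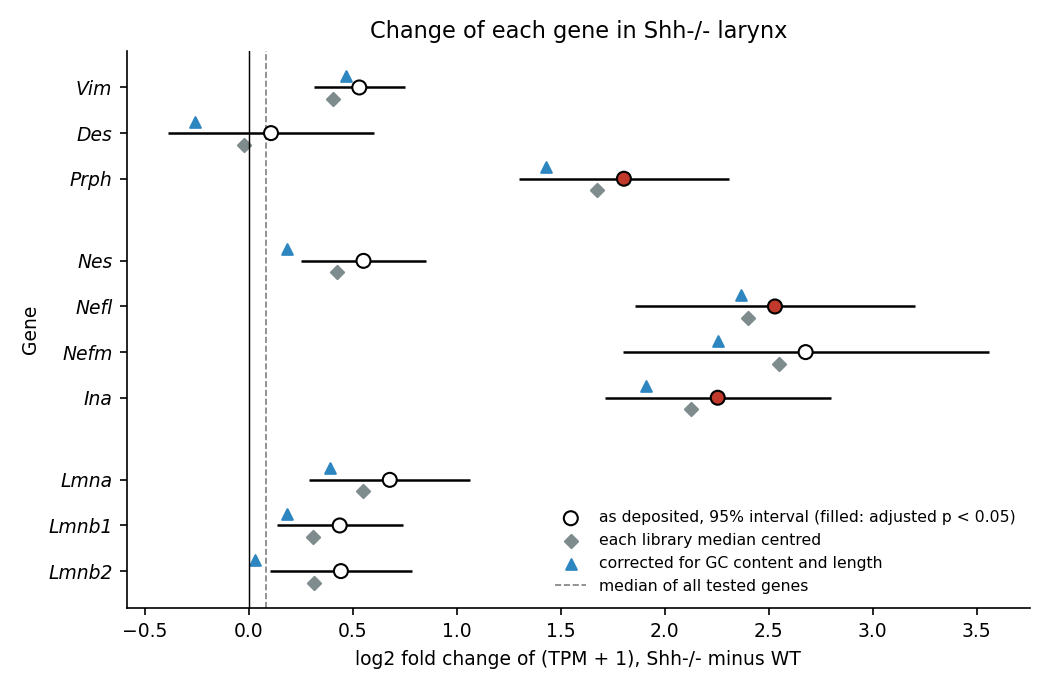
Log2 fold change of TPM + 1 (*Shh*-/- minus WT) for each gene with its 95% interval from limma, filled where the adjusted p is under 0.05, beside the estimates after median centring and after correction for GC content and length. The lowest estimate among the 4 neuronal filament genes is 1.43 for *Prph*, *Des* spans 0, and *Lmnb2* moves from 0.44 to 0.029 after the correction.

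Genes that extend, anchor or process these filaments were followed in 4 lists. Of 35 such genes, 29 were tested and none passed in limma as higher or as lower. An unadjusted p under 0.05 was reached by 4 higher and 3 lower of the 29, where 24.8% of all tested genes reached it, so the count is near the background. Their median log2 fold change was 0.034, beside 0.083 for all tested genes. Among other non-keratin filament genes, 1 of 5 was tested, *Synm*, a type IV partner of desmin and vimentin, at 2.29 and 2.60 TPM in mutants and 2.87 and 2.31 TPM in controls (log2 fold change −0.058, limma adjusted p = 0.878).

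Among the cytolinkers, proteins that tie filaments to junctions and to other cytoskeletal systems, 6 of 7 were tested and *Eppk1* had no entry. *Plec*, the gene of plectin, which binds vimentin, was at 16.1 and 13.9 TPM in *Shh*-/- and 10.1 and 10.4 TPM in WT (log2 fold change 0.51, SE 0.15, adjusted p = 0.146). *Dsp*, the gene of desmoplakin, which anchors filaments at desmosomes, had a log2 fold change of −0.59 (adjusted p = 0.173).

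Of 18 genes for lamin partners, including inner nuclear membrane proteins and the LINC complex that couples the nucleus to the cytoskeleton, 17 were tested. The lowest p belonged to *Nup153*, a nuclear pore protein gene, at 58.2 and 60.3 TPM in *Shh*-/- and 84.0 and 93.8 TPM in WT (log2 fold change −0.58, SE 0.11, limma adjusted p = 0.0895). *Lemd2*, an inner nuclear membrane protein gene, was at 36.5 and 32.1 TPM in *Shh*-/- and 25.6 and 18.3 TPM in WT (log2 fold change 0.64, SE 0.19, adjusted p = 0.151). The list's sum was 1419 and 1395 TPM in *Shh*-/- and 1459 and 1484 TPM in WT, lower in both mutant pools, whereas 11 of the 17 single estimates were above 0 and 6 below.

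All 5 genes for processing the lamin tail were tested. *Icmt*, the methyltransferase of farnesylated proteins, had a log2 fold change of 0.37 (adjusted p = 0.189) and *Zmpste24*, the protease that matures prelamin A, one of −0.31 (adjusted p = 0.193).

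Hedgehog targets (6 genes) had 3 genes past the threshold, all lower, and summed to 18.3 and 35.5 TPM in *Shh*-/- against 211 and 193 TPM in WT. *Foxf1*, the most abundant, was at 0.85 and 9.57 TPM against 72.3 and 64.6 TPM (log2 fold change −3.97, adjusted p = 0.0976). Macrophage markers (6 genes) summed to 16.6 and 13.4 TPM in mutants and 12.5 and 13.8 TPM in controls, and erythroid markers (7 genes) to 11681 and 17793 TPM against 15802 and 18212 TPM, with none past the threshold in limma and none at an unadjusted p under 0.05 in either list. *C1qb* had the lowest p and the highest level of the macrophage list (log2 fold change 0.52, adjusted p = 0.31), and in the erythroid list *Hbb-y* was the most abundant (log2 fold change −0.22, adjusted p = 0.571).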

How the data were processed

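RNA-seq libraries from 2 *Shh*-/- and 2 WT pools of 3 larynxes each were analysed; RNA input was 100 to 155 ng and the RNA integrity number 7.7 to 9. The authors prepared stranded poly(A) libraries, sequenced them single-end, aligned reads to mm10 with HISAT2 2.1.0 and assembled genes with StringTie 1.3.6, per the labels and the study's methods; the annotation release is not given in the sources used here. The deposited tables hold, per gene, mean read coverage (a signal not scaled between libraries), FPKM, which the authors scaled to the library's aligned bases, and TPM, which the authors scaled so that every library sums to 1000000. Read counts were not used, so no counting intervals are given, and precision rests on the spread between pools.

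TPM was summed per gene ID. Differences were tested with limma 3.58.1 in R 4.3.3 on log2(TPM + 1), with an empirical Bayes mean-variance trend, for genes whose TPM averaged 1 or more, without covariates. This scale understates changes of low genes. With 2 pools a side, the smallest two-sided p of an exact permutation test is 0.33, so none was run. The script was run on simulated data with known changes, in which all genes shared the same spread. Spread differs between genes in the real data, so that run is no check of calls near the threshold. The members, gene lists and tests were chosen with earlier results of these data known. Text naming covers the 10 members, *Shh*, *Ptch1*, in each partner list the genes past the threshold or else the 2 with the lowest p, and in marker lists the most abundant gene and that with the lowest p, the rest as counts and sums; exceptions are marked or listed by a count, and a marker gene that this rule would name is not reported here. Base coverage of a member is its FPKM times the library's aligned gigabases. Alternatives were another pseudocount, filters, quantile normalization, median centring, TPM without haemoglobin genes, FPKM, eBayes without trend or with robust variance, an adjusted p of 0.10 and each pool left out. A correction for GC content and longest transcript length (natural splines, 5 degrees of freedom each, GENCODE M21, 16887 genes) was added later.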

Additional observations from a re-analysis of the deposited data

How the results depend on the processing

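No paired analysis was possible because the groups share no replicate numbers. Members past the threshold (3, all higher in *Shh*-/-) became 1 with a pseudocount of 0.1, 1 without the eBayes trend, 0 without the filter on TPM (9 of 10 still at an unadjusted p under 0.05), 5 at an adjusted p under 0.10, 4 with FPKM, 2 with quantile normalization, median centring or the GC and length correction, and 0 with any pool left out. Over all tested genes, 95 higher and 28 lower became 53 and 16 with a pseudocount of 0.1, 0 and 0 without the filter (5011 at an unadjusted p under 0.05), 63 higher with a mean TPM of at least 5, 670 and 188 at an adjusted p under 0.10, and 0 to 4 higher and 0 to 12 lower with 1 pool left out (2070 to 3761 at an unadjusted p under 0.05). Partner genes past the threshold stayed at 0 except for 1 lower, *Nup153*, at an adjusted p under 0.10. *Des* turned to −0.022 with median centring, −0.11 to 0.32 with 1 pool left out (−0.11 without *Shh*-/- pool 2, −0.031 without WT pool 6) and −0.26 with the GC and length correction; the other 9 members stayed above 0 in all 14 alternatives. Of these 14, *Ina* passed in 9, *Nefl* in 7, *Prph* in 4 and *Nefm* in 1, with limma adjusted p from 0.0329 to 0.146, 0.0339 to 0.148, 0.0439 to 0.181 and 0.0497 to 0.185. The cause of these shifts was not tested. Median centring moved the median log2 fold change of all tested genes from 0.083 to −0.046. Class sums kept their direction throughout, with log2 ratios of 1.69 to 2.27 for type IV, 0.47 to 0.56 for type III and 0.33 to 0.57 for lamins with 1 pool left out. *Shh*-/- pool 1 was the shallowest library, but base coverage of *Ina* and *Prph* was lowest in the WT pools. For *Ina* it was 10.7 reads per base in *Shh*-/- pool 1 and 5.01 and 3.66 in WT. For *Prph* it was 10.1 in *Shh*-/- pool 1 and 6.52 and 6.23 in WT. How depth limits the precision of low genes was not tested.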
